A study of Mus musculus with 8 samples.

Results

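Genes of glucose uptake, glycolysis, lactate and pyruvate handling and the pentose phosphate path were followed by RNA sequencing in mouse bone marrow adipocyte cultures. The 39 genes were chosen by their place in these paths and taken by symbol from the deposited table of 54134 genes. Of the 39, 37 reached 1 TPM (a length-corrected transcript share: reads divided by transcript length and brought to a common library sum) in at least 2 libraries and were tested among 14985 genes that did so. The glucose transporter Slc2a4 and the fructose 2,6-bisphosphate enzyme Pfkfb1 did not reach that level.

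Wild-type mouse bone marrow stem cells had been differentiated towards adipocytes for 14 days. Control cultures (n = 2) then stayed without drug, GC cultures (n = 3) were given dexamethasone (DEX), a synthetic glucocorticoid, at 1e-06 M for 24 hours, and GC+GW9662 cultures (n = 3) received the same DEX with GW9662, an antagonist of the nuclear receptor PPARγ, whose dose the labels leave out. Nothing in the labels ties a library to its own culture or animal, so p-values measure the spread between these libraries, which may be technical. Libraries were made with Smart-Seq2, which copies and amplifies full-length cDNA without marking strand. At the length of each gene's longest transcript in GENCODE M21, 97.3% to 97.8% of the genes with under 100 reads in a library came out as whole reads (tolerance 0.02), and this placed the depth at 18184540 to 27896234 reads per library. Depth went partly with group, at 25970340 and 27314736 reads in Control and 19536924, 27896234 and 27243523 in GC. The GC+GW9662 libraries had 18192813, 18184540 and 19251986 reads. The part of depth in the results was not tested.

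The labels and the adipocyte identity were checked before the results. Fkbp5 and Tsc22d3, which glucocorticoids induce in most cells, peaked in the Control-labelled libraries. Fkbp5 was at 463 and 429 TPM in Control, 32.5, 80.3 and 62.8 TPM in GC, and 104, 78.8 and 104 TPM in GC+GW9662. Tsc22d3 was at 572 and 543 TPM in Control, 50.9, 65.4 and 62.7 TPM in GC, and 432, 401 and 455 TPM in GC+GW9662. Every direction below therefore rests on the labels, and GC stands for the libraries labelled GC. The summed level of 10 adipocyte markers was 1431 to 1447 TPM in Control, 182 to 257 TPM in GC and 1208 to 1342 TPM in GC+GW9662. Within that list Adipoq, the adiponectin gene, was at 167 to 173, 2.49 to 4.96 and 246 to 261 TPM, and Lep, the leptin gene, was at 0 in every library. Pnpla2 carried most of the GC sum and had another order, at 206 to 221, 128 to 216 and 105 to 123 TPM. Lpl (602 to 641, 4.43 to 6.3 and 84.8 to 101 TPM) and Lipe (31.2 to 33, 1.24 to 3.2 and 12.2 to 13.6 TPM) stayed well below Control in GC+GW9662. The sum of 10 macrophage markers was larger, at 30908 to 31814 TPM in Control, 9441 to 9988 TPM in GC and 24440 to 28432 TPM in GC+GW9662. C1qa, C1qb, C1qc and Lyz2 carried most of it, and Cd68, on the same list, had another order, at 1001 and 956 TPM in Control, 2226 to 3028 TPM in GC and 516 to 647 TPM in GC+GW9662. The 7 stromal markers summed to 1096 to 1148, 49.0 to 95.7 and 307 to 336 TPM in the same order. Osteoblast markers (4 genes) summed to 168 to 176, 1.39 to 4.47 and 27.9 to 38.8 TPM, and osteoclast markers (6 genes, Ctsk highest) to 97.5 to 99.4, 56.3 to 58.5 and 62.6 to 72.5 TPM. Neutrophil markers (6 genes) summed to 20.9 to 26.7, 249 to 550.1 and 72.4 to 83.7 TPM, nearly all of it S100a8, with Ltf at 0 throughout. Lymphocyte (5 genes), endothelial (5 genes) and erythroid (6 genes) markers stayed at or under 8.46, 8.85 and 0.884 TPM. The cultures thus held RNA of several cell types whose markers moved with the groups, and their part in the results below was not tested. Fewer cells of a type and less RNA per cell cannot be told apart in such bulk libraries.

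Glucose enters cells through facilitative transporters, is phosphorylated by hexokinases and is split in glycolysis to pyruvate, which lactate dehydrogenase turns to lactate or pyruvate dehydrogenase feeds into mitochondria. Phosphofructokinase is the main control point, and fructose 2,6-bisphosphate, made by the PFKFB enzymes, activates it. The pentose phosphate path branches off at glucose 6-phosphate and supplies NADPH, which adipocytes use for fat synthesis and macrophages use for the oxidative burst, and ribose for nucleotides.

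Promoters of 37 of the 39 genes were found by symbol in the RefSeq promoter table (GRCm38.p6, 250 bases before to 50 bases after each start). Slc2a3 and Slc2a4 had no entry. The letters CACGTG, the E-box read by MYC, MAX and related factors, occurred on either strand in promoters of 5 of these 37 genes, against 8.09% of all 27025 genes in the table. They are shown because the same letters stand before 2 genes that were higher in GC (Slc16a1, Pfkfb3) and 3 that were lower (Ldha, Pdk2, Pfkm). Pfkfb3, Ldha, Pdk2 and Pfkm have further listed starts, whose promoters held no CACGTG, and the start shown is the one with it. The Pfkfb3 and Ldha starts shown lie inside their genes. For Pfkfb3 the promoter at the gene's outer end (chr2:11553880-11554179) held none, and for Ldha no start at the outer end was listed. Each line gives bases 250 to 21 before the start on the gene's own strand, with ACGTG on either strand in capitals. CACGTG reads the same on both strands and holds ACGTG on each.
Slc16a1, chr3:104638414-104638643, plus strand: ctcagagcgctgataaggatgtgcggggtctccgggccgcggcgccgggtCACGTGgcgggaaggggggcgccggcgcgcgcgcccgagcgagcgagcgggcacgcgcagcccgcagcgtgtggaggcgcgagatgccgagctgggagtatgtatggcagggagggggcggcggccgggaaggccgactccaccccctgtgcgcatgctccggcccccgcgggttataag
Pfkfb3, chr2:11502111-11502340, minus strand: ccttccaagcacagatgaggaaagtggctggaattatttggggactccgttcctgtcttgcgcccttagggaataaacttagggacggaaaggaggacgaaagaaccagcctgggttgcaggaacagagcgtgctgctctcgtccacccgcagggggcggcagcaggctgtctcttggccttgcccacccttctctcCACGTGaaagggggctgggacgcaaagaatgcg
Ldha, chr7:46845554-46845783, plus strand: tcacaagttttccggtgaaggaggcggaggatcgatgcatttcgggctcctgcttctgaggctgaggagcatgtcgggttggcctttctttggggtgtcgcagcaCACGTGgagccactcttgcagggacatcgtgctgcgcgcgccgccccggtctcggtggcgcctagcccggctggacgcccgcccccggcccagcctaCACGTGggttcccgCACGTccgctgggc
Pdk2, chr11:95041392-95041621, minus strand: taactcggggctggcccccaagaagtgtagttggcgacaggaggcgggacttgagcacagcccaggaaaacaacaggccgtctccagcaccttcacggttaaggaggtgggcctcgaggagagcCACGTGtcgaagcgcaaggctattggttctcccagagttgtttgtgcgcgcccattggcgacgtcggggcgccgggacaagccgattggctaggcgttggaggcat
Pfkm, chr15:98092339-98092568, plus strand: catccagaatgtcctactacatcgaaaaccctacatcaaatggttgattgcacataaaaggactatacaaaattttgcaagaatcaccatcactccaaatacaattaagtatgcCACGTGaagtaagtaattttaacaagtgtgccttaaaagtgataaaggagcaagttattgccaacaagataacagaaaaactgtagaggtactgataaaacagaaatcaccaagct
The capitals begin 200 bases before the shown start of Slc16a1, 53 before that of Pfkfb3, 126 before that of Pdk2 and 136 before that of Pfkm. In the Ldha promoter they begin 145, 48 and 34 bases before the start, and the last match is ACGTG alone, on the other strand. The shorter ACGTG, the core read by the hypoxia-inducible factors, occurred in 22 of the 55 promoters of the 37 genes (40%), against 19.6% of all 32851 promoters of that length. By gene the shares were 19 of 37 and 21.8% of all genes. Promoters were not matched on base composition. Searches for 3 further strings on both strands gave 6 of 37 genes for TGACNNNGC (core of the antioxidant response element, 14% of all genes), 1 of 37 for ACANNNTGT (glucocorticoid receptor palindrome, 7.9%) and 8 of 37 for AGGTCA (core of PPARγ and other nuclear receptor sites, 18.1%). A match is a description of these letters and not a bound site.

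GC was set against Control to see the response of the cultures to DEX. Lactate dehydrogenases, the pyruvate dehydrogenase kinases, Hk3, Aldoc and Tkt were lower in GC, while the lactate carrier Slc16a1, the glucose transporter Slc2a1, Pfkfb3 and Pgd were higher. Of the 37 tested genes, 7 rose and 23 fell (limma on log2(TPM + 1), Benjamini-Hochberg adjusted p at most 0.05), or 18.9% and 62.2%, against 16.2% and 39.1% of all 14985 genes (30 in either direction, 81.1% against 55.3%). Their median difference was -0.77, against -0.38 over all genes. The count that fell was smaller without either Control replicate, a run that leaves a single Control library. The 12 calls that did not pass in every alternative were those of Slc2a3, Hk1, Gpi1, Pfkl, Pfkp, Pfkfb4, Aldoa, Tpi1, Pgam1, Slc16a3, Pgls and Rpe.

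Adding GW9662 to DEX was compared with DEX alone to see what changed with the antagonist. Pparg itself was at 6.29 and 8.84 TPM in Control, 2.26, 3.38 and 3.19 TPM in GC, and 16.7, 18.5 and 17.5 TPM in GC+GW9662. The adipocyte marker Fabp4 was at 280 and 321, 23.8 to 39.9 and 647 to 777 TPM in the same order. Whether PPARγ was blocked was not tested. The lactate dehydrogenases, Aldoc, Pdk genes and Pgls were higher with GW9662, and Slc16a1, Pfkfb3, Pgd, Slc2a1 and Pkm were lower. Of the 37 genes 14 rose and 12 fell, or 37.8% and 32.4%, against 28.3% and 33.5% of all genes (26 in either direction, 70.3% against 61.7%), with a median of 0.03 against -0.11. Calls of Slc2a3, Hk1, Pfkm, Pfkp and Eno2 did not pass in every alternative. Both comparisons use the same GC libraries, so opposite signs in them are not independent of each other.

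In GC+GW9662 against Control, 1 gene rose (Pgls) and 20 fell, or 2.7% and 54.1%, against 14.1% and 48.6% of all genes (21 in either direction, 56.8% against 62.7%). The shares that passed were near those of all genes for the falls and for either direction. The median was -0.44, against -0.49 over all genes. These differences followed transcript length. Over 10 equal bins of tested genes by longest transcript, the median difference went from 0.59 in the shortest bin (12 to 604 bases) to -1.67 in the longest (6275 bases and more). It went from 0.18 to -1.02 in GC against Control and from 0.41 to -0.53 in GC+GW9662 against GC. With this trend removed, 9 members were higher and 11 lower in GC+GW9662 against Control, 10 and 15 in GC against Control, and 14 and 13 in GC+GW9662 against GC. As shares of the members these were 24.3% and 29.7%, 27.0% and 40.5%, and 37.8% and 35.1%. Under the same setting the shares of all genes were 22.7% and 22.0%, 28.8% and 27.1%, and 32.0% and 32.2%. In GC+GW9662 against Control, only 5 of the 21 calls (Hk1, Hk2, Pdha1, G6pdx and Pgls) passed in every alternative run. The corresponding numbers were 18 of 30 in GC against Control and 21 of 26 in GC+GW9662 against GC. Median-ratio scaling moved the median of all genes in GC against Control from -0.38 to 0.05, and the members that passed became 11 higher and 14 lower (29.7% and 37.8%), against 27.4% and 26.5% of all genes under that scaling. The share that rose was thus near that of all genes.

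**Figure D1:**
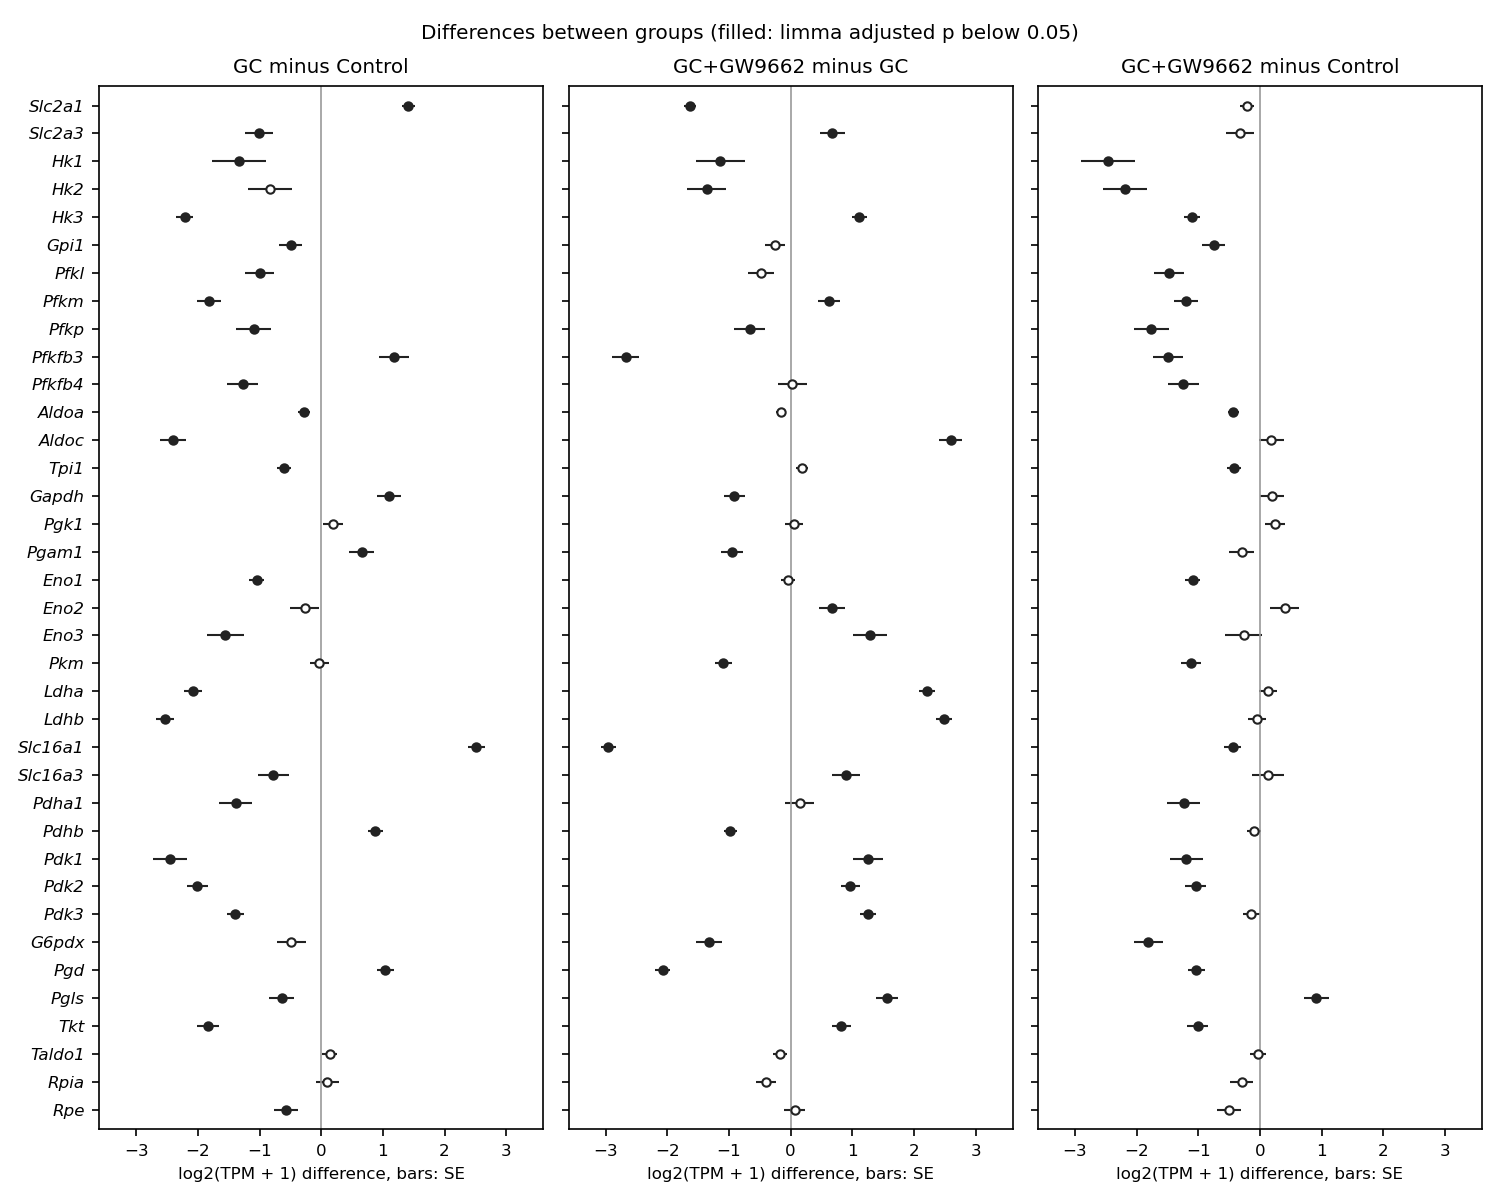
Differences in log2(TPM + 1) between the 3 pairs of groups for the 37 tested genes, with bars of 1 SE and filled points where the limma adjusted p was at most 0.05. In the left panel 7 filled points lie above 0 and 23 below, in the middle panel 14 and 12, and in the right panel 1 and 20, where 9 and 11 passed once the trend by longest transcript was removed.

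Slc2a1 (GLUT1, the main basal glucose transporter, chr4:119108711-119137983) had the highest TPM of the 11 Slc2a transporter genes examined in each library and was highest in GC. It measured 67.2 and 66.5 TPM in Control, 190.0, 167 and 183 TPM in GC, and 53.99, 59.8 and 59.2 TPM in GC+GW9662. The GC libraries stood above all others with no overlap, while Control and GC+GW9662 were close to each other. Slc2a1 rose by 1.41 ± 0.11 in GC (adjusted p = 1.96e-05, 2.69 times the mean TPM) and fell by 1.62 ± 0.10 with GW9662 (adjusted p = 5.47e-06). Its 3260-base transcript belongs to a length bin whose median was -0.45 in GC against Control. In GC+GW9662 against Control it was at -0.21 ± 0.11 (adjusted p = 0.12), and median-ratio scaling put it at 0.51 (adjusted p = 0.047).

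Slc2a3 (GLUT3, a high-affinity transporter of neurons and leukocytes) was low throughout, at 3.79 and 3.56 TPM in Control, 1.84, 1.15 and 1.07 TPM in GC, and 2.35, 2.503 and 3.41 TPM in GC+GW9662. It fell by 1.004 ± 0.22 in GC (adjusted p = 0.0056) and rose by 0.68 ± 0.20 with GW9662 (adjusted p = 0.019). The fall did not pass with the length trend removed (-0.06, adjusted p = 0.91), under median-ratio scaling (-0.58, adjusted p = 0.092) or under quantile normalization (-0.39, adjusted p = 0.28), and the rise did not pass without GC replicate 2 or 3 or GC+GW9662 replicate 3. Slc2a4, the insulin-responsive transporter GLUT4 of fat and muscle, stayed at or under 0.99 TPM and 35 reads in every library. In GC it was at 0 TPM in 2 libraries and at 0.0259 TPM in the other, and it was not tested. Among these 3 transporters only, Slc2a1 made up 93.9% ± 0.131 of the 3 transporters' TPM in Control (SD, n = 2), 99.3% ± 0.193 in GC (SD, n = 3) and 94.3% ± 1.08 in GC+GW9662 (SD, n = 3). Over all 11 Slc2a genes, of which Slc2a8 was the next highest in Control (35.6 and 30.3 TPM), the share was 47.1% ± 0.356, 87.4% ± 0.462 and 47.9% ± 1.35.

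**Figure D2:**
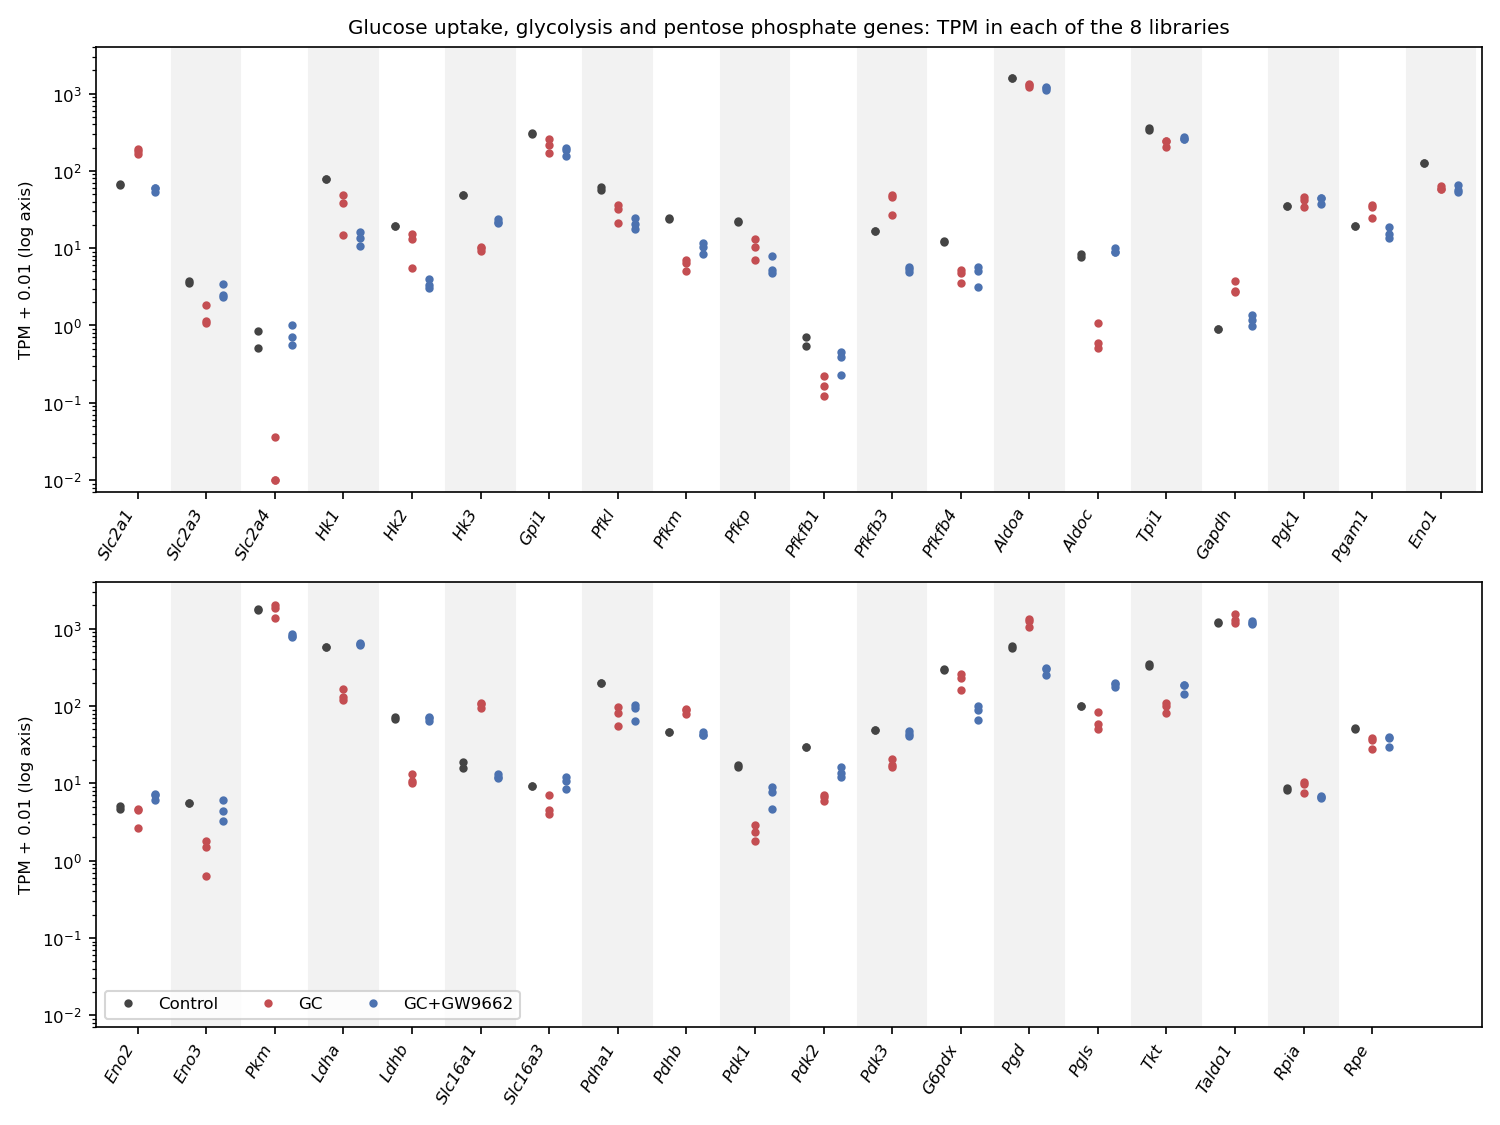
TPM of all 39 genes in the 8 libraries on a log axis, with 0.01 added so that 0 can be drawn, and 1 point per library coloured by group. Slc16a1, Slc2a1, Pfkfb3 and Pgd show the GC points above the rest, Ldha, Ldhb and Aldoc show them below, and Hk2 and Pkm show GC+GW9662 lowest.

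The 3 hexokinases, which trap glucose as glucose 6-phosphate, differed in their order across groups. Hk1, the broadly expressed form, measured 77.8 and 78.4 TPM in Control, 14.8, 49.3 and 38.5 TPM in GC, and 13.5, 10.6 and 16.4 TPM in GC+GW9662. Control was highest and GC+GW9662 was lowest but for GC replicate 1, which lay inside the GC+GW9662 range and far under the other GC libraries. Hk1 fell by 1.33 ± 0.44 in GC (adjusted p = 0.033) and by 2.46 ± 0.44 in GC+GW9662 against Control (adjusted p = 0.0029). The second of these passed in every alternative. The difference between GC+GW9662 and GC was -1.14 ± 0.39 (adjusted p = 0.035). The call in GC against Control was lost without either Control replicate or GC+GW9662 replicate 1, with no filter, with the 2 groups alone, with 2 of the other scalings (-0.77 by median ratio) and with either length trend removed (-0.47 by exon length). That in GC+GW9662 against GC was lost without any library except GC replicate 1 or GC+GW9662 replicate 3, and also with no filter, the 2 groups alone or voom.

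Hk2, the insulin- and hypoxia-regulated form of muscle and fat, measured 19.1 and 19.4 TPM in Control, 5.59, 15.02 and 12.97 TPM in GC, and 3.29, 4.0 and 3.08 TPM in GC+GW9662. Its GC+GW9662 libraries were lower than all others. It fell by 1.36 ± 0.32 with GW9662 (adjusted p = 0.0069) and by 2.19 ± 0.36 against Control (adjusted p = 0.0024), and in GC against Control it did not pass (-0.83 ± 0.36, adjusted p = 0.08). That comparison passed without GC replicate 1 (-0.44, adjusted p = 0.041) or GC replicate 2 (-1.08, adjusted p = 0.030). Hk3, a form of myeloid cells, had another order, at 49.4 and 48.5 TPM in Control, 9.05, 9.95 and 10.3 TPM in GC, and 24.01, 21.7 and 21.2 TPM in GC+GW9662. No library of one group overlapped another. Hk3 fell by 2.21 ± 0.13 in GC (adjusted p = 6.23e-06) and rose by 1.11 ± 0.12 with GW9662 (adjusted p = 0.00013), and stayed under Control (-1.101 ± 0.13, adjusted p = 0.0014, which missed the threshold with the trend by longest transcript removed).

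The make-up of the hexokinases differed between groups. Hk3 was 33.5% ± 0.445 of their summed TPM in Control (SD, n = 2), 20.3% ± 9.21 in GC (SD, n = 3) and 56.9% ± 4.16 in GC+GW9662 (SD, n = 3). The GC libraries spread widely, at 30.7%, 13.4% and 16.7%, while the GC+GW9662 libraries lay between 52.1% and 59.7%. Hk2 was 20.1% ± 0.997 in GC and 8.87% ± 1.86 in GC+GW9662. The macrophage sums given above were highest in Control, where the Hk3 share was 33.5%, and higher in GC+GW9662 than in GC. Cd68 was lower in GC+GW9662 than in GC, and the part of these markers in the Hk3 share was not tested.

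Gpi1 (glucose 6-phosphate isomerase) ranged from 154 to 305 TPM over all libraries. It fell in GC+GW9662 against Control (-0.75 ± 0.18, adjusted p = 0.0079), a call lost without Control replicate 1, and passed narrowly in GC against Control (-0.50 ± 0.18, adjusted p = 0.047), a call that every single-library omission ended except those of GC and GC+GW9662 replicate 2. Its sign turned with the scaling: in GC against Control it was 0.07 under median-ratio scaling and 0.02 with the trend by longest transcript removed.

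Of the 3 phosphofructokinases, which commit sugar to glycolysis, Pfkm, the muscle form, had the clearest difference, at 24.6 and 23.7 TPM in Control, 5.04, 6.42 and 7.08 TPM in GC, and 11.5, 8.36 and 10.3 TPM in GC+GW9662. It fell by 1.82 ± 0.20 in GC (adjusted p = 0.00013) and rose by 0.62 ± 0.18 with GW9662 (adjusted p = 0.017), a rise lost without GC+GW9662 replicate 1 or 3. Pfkl, the liver form, measured 62.2 and 56.5 TPM in Control, 21.2, 36.4 and 32.04 TPM in GC, and 24.6, 17.4 and 20.5 TPM in GC+GW9662. Pfkl fell in GC (-1.0 ± 0.24, adjusted p = 0.008, not passed without Control replicate 1, nor at -0.31 with the exon length trend removed) and in GC+GW9662 against Control (-1.48 ± 0.24, adjusted p = 0.0024, -0.29 and not passed with that trend removed), with GC replicate 1 the lowest of its group. Pfkp, the platelet form, measured 22.3 and 22.03 TPM in Control, 7.05, 12.99 and 10.2 TPM in GC, and 7.92, 5.24 and 4.695 TPM in GC+GW9662. It fell by 1.76 ± 0.28 in GC+GW9662 against Control (adjusted p = 0.0023), yet its 8681-base transcript falls in the longest bin, whose median was -1.67, and with that trend removed the difference was -0.13 (adjusted p = 0.62). In GC against Control Pfkp fell by 1.097 ± 0.28 (adjusted p = 0.011), a call lost without either Control replicate. Against GC it fell by 0.67 ± 0.25 with GW9662 (adjusted p = 0.048), a call lost without any library except GC replicate 1 or GC+GW9662 replicate 1. Pfkm held 22.9% ± 0.444, 13.7% ± 1.91 and 27.4% ± 1.47 of the family's TPM in Control, GC and GC+GW9662 (SD, n = 2, 3 and 3).

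**Figure D3:**
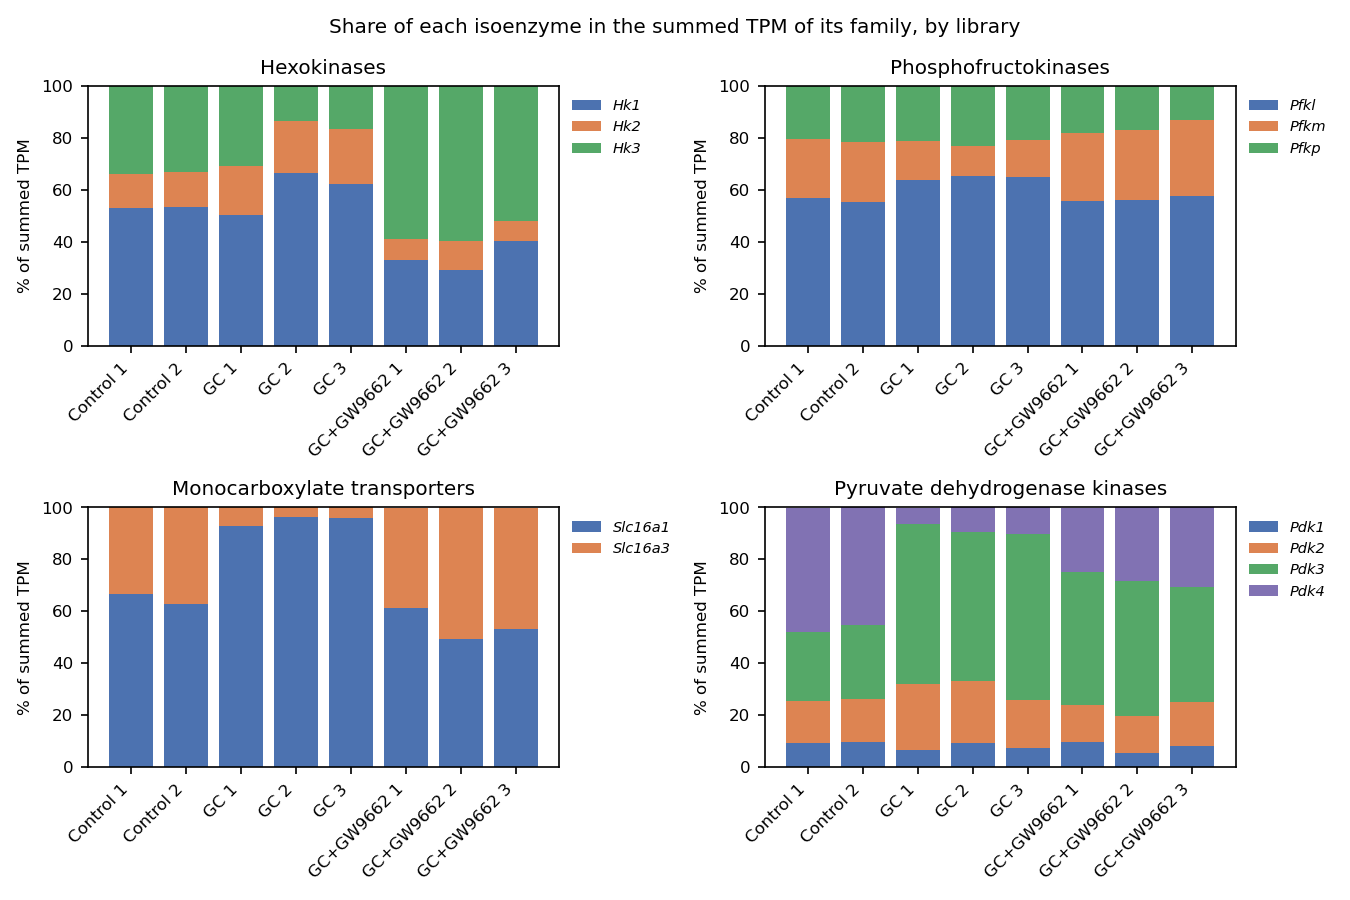
Percent of summed TPM held by each of the plotted genes of 4 families in each of the 8 libraries, as stacked bars that reach 100%. Hk3 takes 52.1% to 59.7% of the hexokinases in GC+GW9662, and Slc16a1 takes 92.9% to 96.4% of the 2 plotted monocarboxylate carriers in GC. Pdk4, shown with Pdk1 to Pdk3, takes 45.2% to 48.1% in Control and 6.16% to 10.1% in GC.

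Pfkfb3, whose product makes fructose 2,6-bisphosphate and so drives phosphofructokinase, was higher in GC and lowest with GW9662. It measured 16.9 and 16.6 TPM in Control, 27.1, 48.2 and 46.2 TPM in GC, and 5.43, 5.62 and 4.91 TPM in GC+GW9662. The groups did not overlap. Pfkfb3 rose by 1.18 ± 0.25 in GC (adjusted p = 0.0041) and fell by 2.67 ± 0.22 with GW9662 (adjusted p = 2.99e-05), a 7.61-fold difference of mean TPM that passed in every alternative. Against Control it fell by 1.49 ± 0.25 in GC+GW9662 (adjusted p = 0.0025), which with the trend by longest transcript removed became -0.21 (adjusted p = 0.23).

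Pfkfb4, another form, moved otherwise, at 12.4 and 11.9 TPM in Control, 3.502, 4.71 and 5.22 TPM in GC, and 5.66, 3.17 and 5.13 TPM in GC+GW9662. It fell by 1.27 ± 0.25 in GC and by 1.24 ± 0.25 in GC+GW9662, each against Control (adjusted p = 0.0033 and 0.0043), and GC+GW9662 differed from GC by 0.03 ± 0.23 (adjusted p = 0.91). Under quantile normalization neither fall passed, and with the length trend removed the fall in GC+GW9662 did not (-0.39, adjusted p = 0.11). Pfkfb3 held 89.5% ± 1.31 of the summed TPM of Pfkfb1, Pfkfb3 and Pfkfb4 in GC (SD, n = 3), 56.8% ± 0.718 in Control (SD, n = 2) and 52.1% ± 8.03 in GC+GW9662 (SD, n = 3). With Pfkfb2 (0.867 to 2.41 TPM) added to the sum the shares were 87.3% ± 1.42, 52.5% ± 0.598 and 45.99% ± 6.26. Pfkfb1 gave 3 to 20 reads per library and was not tested.

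The lower steps, from fructose 1,6-bisphosphate to pyruvate, hold the most abundant genes of the set. Aldoa (aldolase A) measured 1567 and 1566 TPM in Control, 1228, 1347 and 1301 TPM in GC, and 1217, 1097 and 1179 TPM in GC+GW9662. Its log2 difference was -0.28 ± 0.09 in GC and -0.43 ± 0.09 in GC+GW9662 against Control (adjusted p = 0.033 and 0.0052), and under median-ratio scaling both had the other sign, at 0.29 and 0.30. The GC call was lost without either Control replicate, GC replicate 3 or GC+GW9662 replicate 3. Aldoc (aldolase C, best known from brain) was much lower in GC, at 8.504 and 7.58 TPM in Control, 1.08, 0.504 and 0.579 TPM in GC, and 9.04, 8.803 and 10.02 TPM in GC+GW9662. It fell by 2.41 ± 0.21 in GC (adjusted p = 3.68e-05) and rose by 2.59 ± 0.19 with GW9662 (adjusted p = 1.45e-05), with no overlap of GC with either other group. Its counts were low, at 17 to 309 reads per library.

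Tpi1 (triosephosphate isomerase) ranged from 206 to 362 TPM. It fell by 0.60 ± 0.11 in GC (adjusted p = 0.0018, but -0.04 under median-ratio scaling) and by 0.42 ± 0.11 in GC+GW9662 against Control (adjusted p = 0.0099), the latter lost without Control replicate 1 and turned to 0.31 by median-ratio scaling. Eno1 (the common enolase) measured 125 and 125 TPM in Control, 57.4, 64.6 and 58.8 TPM in GC, and 66.04, 53.00 and 56.4 TPM in GC+GW9662. It fell by 1.05 ± 0.13 in GC (adjusted p = 0.00023), and GC+GW9662 differed from GC by -0.05 ± 0.11 (adjusted p = 0.73). Of the 50-base windows in the coding transcripts of Eno1, 49.5% also occur in other annotated genes, and the part of this in its values was not tested. Eno3, the muscle enolase, was at 5.49 and 5.62, then 1.47, 1.79 and 0.618, then 6.13, 3.28 and 4.33 TPM, in the order Control, GC, GC+GW9662. It fell by 1.55 ± 0.30 in GC (adjusted p = 0.0029) and rose by 1.29 ± 0.27 with GW9662 (adjusted p = 0.0041). Eno2, the neuronal form, was at 5.07 and 4.63, then 4.69, 4.49 and 2.65, then 7.21, 6.97 and 6.05 TPM, and rose with GW9662 against GC (0.67 ± 0.21, adjusted p = 0.025, lost without GC replicate 3 or GC+GW9662 replicate 1 or 2). Against Control it was at 0.40 ± 0.24 in GC+GW9662 (adjusted p = 0.17) but passed under median-ratio scaling (1.01, adjusted p = 0.012).

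Pkm, which encodes pyruvate kinase of the last step, was the highest gene of the set in Control. It measured 1804 and 1734 TPM in Control, 1388, 2030.1 and 1844 TPM in GC, and 864, 773 and 806 TPM in GC+GW9662. The GC libraries spread on either side of Control and every GC+GW9662 library was under all of them. Pkm fell by 1.09 ± 0.14 with GW9662 (adjusted p = 0.00034) and by 1.12 ± 0.16 in GC+GW9662 against Control (adjusted p = 0.0018, lost at -0.19 with the trend by exon length removed). In GC against Control the difference was -0.03 ± 0.16 (adjusted p = 0.89), and median-ratio scaling gave 0.54 (adjusted p = 0.010). GC replicate 1, the lowest GC library for Pkm, was also lowest of its group for Hk1, Hk2, Pfkl, Pfkfb3 and G6pdx. It had the fewest reads of the GC libraries (19536924), near the depth of GC+GW9662. Over all tested genes it correlated with the GC+GW9662 libraries at 0.859 to 0.878, against 0.78 to 0.833 for the other GC libraries. The part of depth in these values was not tested.

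Gapdh, a glyceraldehyde 3-phosphate dehydrogenase gene used as a reference in many assays, was listed at only 0.89 and 0.883 TPM in Control, 2.68, 2.81 and 3.75 TPM in GC, and 1.35, 1.17 and 0.962 TPM in GC+GW9662. That is 31 to 153 reads per library. Of the 50-base windows in its coding transcripts, 58.4% also occur in other annotated genes, and 213 of those 223 genes are pseudogenes. Gapdh rose by 1.104 ± 0.19 in GC (adjusted p = 0.0017) and fell by 0.91 ± 0.17 with GW9662 (adjusted p = 0.0026). How far shared sequence sets its level was not tested, so neither the level nor the differences can be taken as those of all Gapdh RNA. Pgk1 (phosphoglycerate kinase, 68.0% of windows shared) was at 35.6 and 34.8, then 45.7, 33.8 and 42.4, then 44.8, 44.3 and 36.7 TPM, in the order Control, GC, GC+GW9662, and did not pass in the 3 comparisons (differences of 0.19, 0.05 and 0.24). Median-ratio scaling raised Pgk1 past the threshold in GC and in GC+GW9662 against Control (0.74 and 0.95, adjusted p = 0.029 and 0.010). Pgam1 (phosphoglycerate mutase, 41.5% shared) was at 19.1 and 19.6, then 35.6, 24.7 and 33.9, then 18.5, 13.4 and 15.3 TPM in the same order. It rose by 0.65 ± 0.20 in GC (adjusted p = 0.025, lost without either Control replicate or GC replicate 3) and fell by 0.95 ± 0.18 with GW9662 (adjusted p = 0.0025).

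**Figure D4:**
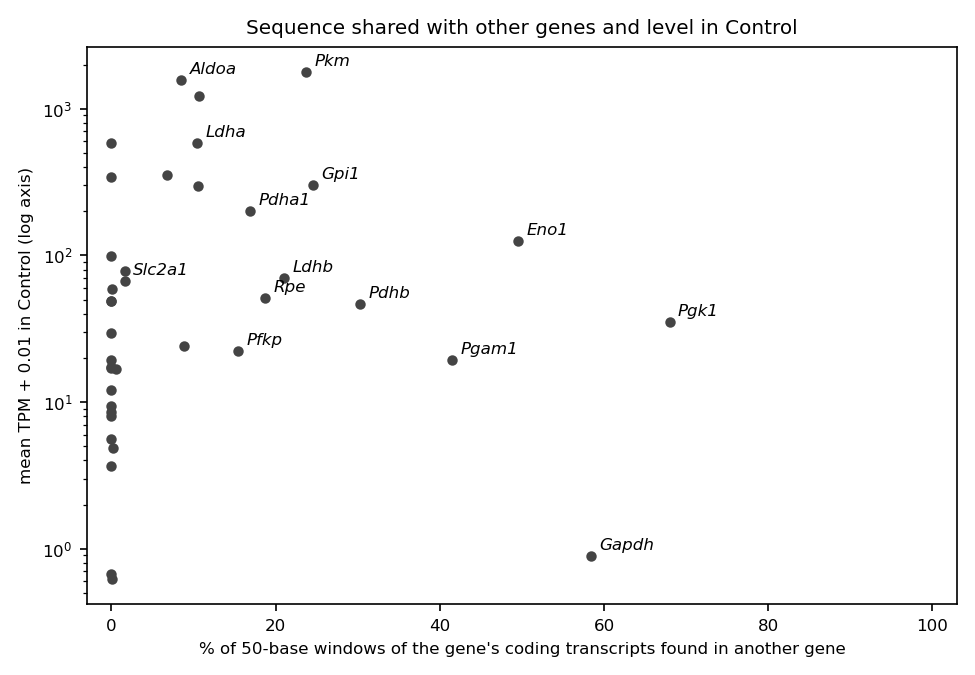
Mean TPM in Control (log axis, 0.01 added) of each of the 39 genes against the percent of 50-base windows of its coding transcripts that also occur in another GENCODE M21 gene. Pgk1 (68.0%), Gapdh (58.4%), Eno1 (49.5%) and Pgam1 (41.5%) lie farthest right, and Gapdh is at 0.886 TPM on average.

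Shared sequence was smaller for the other genes the results turn on: 10.4% for Ldha, 21% for Ldhb, 23.7% for Pkm, 1.6% for Slc2a1 and 0.0% for Slc16a1, Pgd, Tkt, Hk2, Hk3 and the 3 Pdk genes. Some named near copies had reads of their own in single libraries. Aldoart2, an aldolase A retrogene, was at 9.76 and 19.6 TPM in GC+GW9662 replicates 1 and 2, 0.164 TPM in replicate 3 and at most 0.342 TPM elsewhere. Pgk1-rs7, a Pgk1 copy, showed the same libraries at 2.47, 6.49 and 0.216 TPM. Tpi-rs11, a Tpi1 copy, was at 20.02 to 39.7 TPM in all 8 libraries.

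Among the lactate genes, both lactate dehydrogenases were lower in GC than in Control and Slc16a1 was higher. Ldha (chr7:46841475-46855627), whose subunit favours the making of lactate, measured 583 and 576 TPM in Control, 168, 118 and 129 TPM in GC, and 621, 657 and 629.8 TPM in GC+GW9662. GC was far below both other groups with no overlap. Ldha fell by 2.07 ± 0.15 in GC (adjusted p = 1.31e-05), 4.19-fold in mean TPM. It rose by 2.21 ± 0.13 with GW9662 (adjusted p = 5.43e-06) and then differed from Control by 0.13 ± 0.15 (adjusted p = 0.45). That last difference passed under median-ratio scaling (0.86, adjusted p = 0.019), with the exon length trend removed (0.60, adjusted p = 0.036) and with voom on recovered reads (0.63, adjusted p = 0.013).

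Ldhb, whose subunit favours the use of lactate, measured 73.2 and 67.1 TPM in Control, 13.1, 10.6 and 10.2 TPM in GC, and 71.3, 63.2 and 69.03 TPM in GC+GW9662. It fell by 2.54 ± 0.14 in GC (adjusted p = 4.43e-06) and rose by 2.49 ± 0.13 with GW9662 (adjusted p = 2.74e-06). Both subunit genes thus moved the same way, and Ldha made up 89.2% ± 0.514 of their TPM in Control (SD, n = 2), 92.4% ± 0.541 in GC (SD, n = 3) and 90.3% ± 0.784 in GC+GW9662 (SD, n = 3).

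Slc16a1 (MCT1, a carrier of lactate and pyruvate across the plasma membrane, chr3:104638668-104658462) went the other way. It measured 18.6 and 15.9 TPM in Control, 94.4, 107 and 108 TPM in GC, and 13.2, 11.8 and 12.2 TPM in GC+GW9662. In GC it rose by 2.52 ± 0.14 (adjusted p = 3.45e-06), a 5.99-fold higher mean TPM and the largest rise of the 37 genes on the log2(TPM + 1) scale. With GW9662 it fell by 2.96 ± 0.12 (adjusted p = 8.54e-07), the largest fall of the 37 in that comparison. Both calls passed in every alternative, and both exceeded the medians of its length bin, -0.72 and -0.43. Against Control, GC+GW9662 was -0.44 ± 0.14 (adjusted p = 0.021), but the sign turned under median-ratio scaling (0.24) and quantile normalization (0.49), and the call was lost without Control replicate 1, without the second or the third GC+GW9662 library, and when a block was added (adjusted p = 0.074 by title number and 0.075 by bracketed number).

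Slc16a3 (MCT4, the lactate exporter of glycolytic cells) was low, at 9.36 and 9.35 TPM in Control, 7.16, 3.96 and 4.48 TPM in GC, and 8.36, 12.1 and 10.8 TPM in GC+GW9662. It fell by 0.77 ± 0.26 in GC (adjusted p = 0.033), a call lost without any single library except GC replicate 1 or GC+GW9662 replicate 1 or 2, and under quantile normalization the difference was 0.0036. It rose by 0.90 ± 0.23 with GW9662 (adjusted p = 0.01). Slc16a1 was 64.7% ± 2.55 of the summed TPM of both carriers in Control (SD, n = 2), 95.1% ± 1.91 in GC (SD, n = 3) and 54.5% ± 6.04 in GC+GW9662 (SD, n = 3). Over all 4 lactate genes the summed level was 669 to 685 TPM in Control, 240 to 282 TPM in GC and 714 to 744 TPM in GC+GW9662.

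Pyruvate dehydrogenase turns pyruvate into acetyl-CoA, and its kinases (Pdk) switch it off. Pdha1, the catalytic alpha subunit, measured 202 and 199.7 TPM in Control, 55.4, 97.2 and 81.8 TPM in GC, and 102, 63.5 and 93.2 TPM in GC+GW9662. It fell by 1.39 ± 0.27 in GC and by 1.24 ± 0.27 in GC+GW9662 against Control (adjusted p = 0.0026 and 0.005). Pdhb, the beta subunit of the same enzyme, went up in GC, at 46.7 and 46.4 TPM in Control, 91.6, 78.7 and 89.9 TPM in GC, and 46.5, 42.04 and 42.2 TPM in GC+GW9662. It rose by 0.88 ± 0.12 (adjusted p = 0.0004) and fell by 0.98 ± 0.11 with GW9662 (adjusted p = 0.00013). The 2 subunits of 1 complex thus had opposite signs in GC against Control in every alternative. Of the windows in their coding transcripts 16.9% (Pdha1) and 30.3% (Pdhb) also occur in other genes.

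Pdk1, Pdk2 and Pdk3 were lower in GC. Pdk1, a hypoxia-induced form, measured 17.5 and 16.5 TPM in Control, 1.78, 2.85 and 2.35 TPM in GC, and 9.04, 4.66 and 7.62 TPM in GC+GW9662 and fell by 2.45 ± 0.27 (adjusted p = 0.00015). Pdk2, the most widely expressed form, measured 29.8 and 29.3 TPM in Control, 6.73, 7.13 and 5.96 TPM in GC, and 13.6, 11.98 and 16.1 TPM in GC+GW9662 and fell by 2.01 ± 0.17 (adjusted p = 3.52e-05). Pdk3 measured 48.5 and 49.1 TPM in Control, 16.4, 17.3 and 20.3 TPM in GC, and 47.9, 43.5 and 41.6 TPM in GC+GW9662 and fell by 1.39 ± 0.14 (adjusted p = 7.64e-05). With GW9662 they rose by 1.26 ± 0.25, 0.97 ± 0.15 and 1.26 ± 0.12 (adjusted p = 0.0029, 0.001 and 7.81e-05). All 6 of these calls passed in every alternative. Pdk3 in GC+GW9662 overlapped no Control library but differed by -0.14 ± 0.14 (adjusted p = 0.41), whereas Pdk1 and Pdk2 stayed lower than Control (-1.19 and -1.04, adjusted p = 0.0065 and 0.0025). The Pdk1 call in that comparison was lost without Control replicate 1 and with the length trend removed (0.17, adjusted p = 0.55), and the Pdk2 call was lost under median-ratio scaling and quantile normalization. Pdk4, a kinase gene outside the 39, was the most abundant of the family in Control, at 88.7 and 78.4 TPM in Control, 1.64, 2.82 and 3.22 TPM in GC, and 23.5, 23.9 and 28.8 TPM in GC+GW9662. Of the TPM of all 4 kinases Pdk4 held 46.7% ± 2.02 in Control (SD, n = 2), 8.54% ± 2.09 in GC (SD, n = 3) and 28.01% ± 2.85 in GC+GW9662 (SD, n = 3), and Pdk3 held 27.3% ± 1.46, 61.1% ± 3.23 and 48.96% ± 4.17.

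The oxidative steps of the pentose phosphate path, which make NADPH, did not move together. G6pdx (glucose 6-phosphate dehydrogenase, the entry step) measured 304 and 293 TPM in Control, 160.2, 259 and 232 TPM in GC, and 102, 66.1 and 89.02 TPM in GC+GW9662. It fell by 1.33 ± 0.21 with GW9662 (adjusted p = 0.001) and fell by 1.81 ± 0.24 against Control (adjusted p = 0.0016), calls that passed in every alternative, and its GC libraries did not differ from Control past the threshold (-0.49 ± 0.24, adjusted p = 0.11). Pgls (6-phosphogluconolactonase) had its highest level with GW9662, at 98.8 and 99.97 TPM in Control, 84.5, 51.02 and 58.7 TPM in GC, and 175, 199 and 192 TPM in GC+GW9662. It rose by 1.56 ± 0.18 against GC and by 0.92 ± 0.20 against Control (adjusted p = 0.00016 and 0.005). It fell in GC against Control by 0.64 ± 0.20 (adjusted p = 0.024), a call lost without either Control replicate or GC replicate 3 and reduced to -0.08 by median-ratio scaling. Pgd (6-phosphogluconate dehydrogenase) measured 598 and 569 TPM in Control, 1046, 1325 and 1252 TPM in GC, and 309.7, 249 and 299 TPM in GC+GW9662. It rose by 1.04 ± 0.14 in GC (adjusted p = 0.00038) and fell by 2.07 ± 0.12 with GW9662 (adjusted p = 5.73e-06), with no overlap between any groups. Against Control, GC+GW9662 fell by 1.03 ± 0.14 (adjusted p = 0.0017), which median-ratio scaling (-0.30, adjusted p = 0.062) and removal of the trend by longest transcript (-0.12, adjusted p = 0.33) ended.

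In the non-oxidative part, which shuttles sugars between ribose and glycolysis, Tkt (transketolase) measured 354 and 334 TPM in Control, 80.1, 110.3 and 100.0 TPM in GC, and 189, 141 and 186 TPM in GC+GW9662. It fell by 1.83 ± 0.17 in GC (adjusted p = 6.26e-05), rose by 0.82 ± 0.16 with GW9662 (adjusted p = 0.0025) and stayed below Control by 1.01 ± 0.17 (adjusted p = 0.0027). Tkt lost the last of these calls under median-ratio scaling and with either length trend removed. Removal of the exon length trend also turned the sign of Tkt there (0.26, adjusted p = 0.14). Taldo1 (transaldolase), its partner, did not pass in the 3 comparisons, at 1228 and 1198, then 1552, 1175 and 1296, then 1243, 1136 and 1186 TPM in the order Control, GC, GC+GW9662. The Taldo1 differences were 0.13 ± 0.13, -0.17 ± 0.11 and -0.03 ± 0.13, and Taldo1 passed in GC against Control under median-ratio scaling (0.70, adjusted p = 0.034). Rpia (ribose 5-phosphate isomerase, 6.45 to 10.4 TPM) did not pass in them either, but in GC against Control it did under median-ratio scaling (0.60, adjusted p = 0.0078) and quantile normalization (0.81, adjusted p = 0.0022). Rpe (ribulose 5-phosphate epimerase, 27.5 to 52.1 TPM) fell in GC by 0.57 ± 0.19 (adjusted p = 0.037), a call lost without either Control replicate, GC replicate 3 or GC+GW9662 replicate 1 or 3 and reduced to -0.01 by median-ratio scaling. The 7 pentose phosphate genes summed to 2555 to 2641 TPM in Control, 2958 to 2985 TPM in GC and 1827 to 2064 TPM in GC+GW9662. Taldo1 and Pgd carried most of each sum, so it does not stand for the path. In GC against Control only Pgd of these genes passed as higher, and Tkt, Pgls and Rpe passed as lower.

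**Figure D5:**
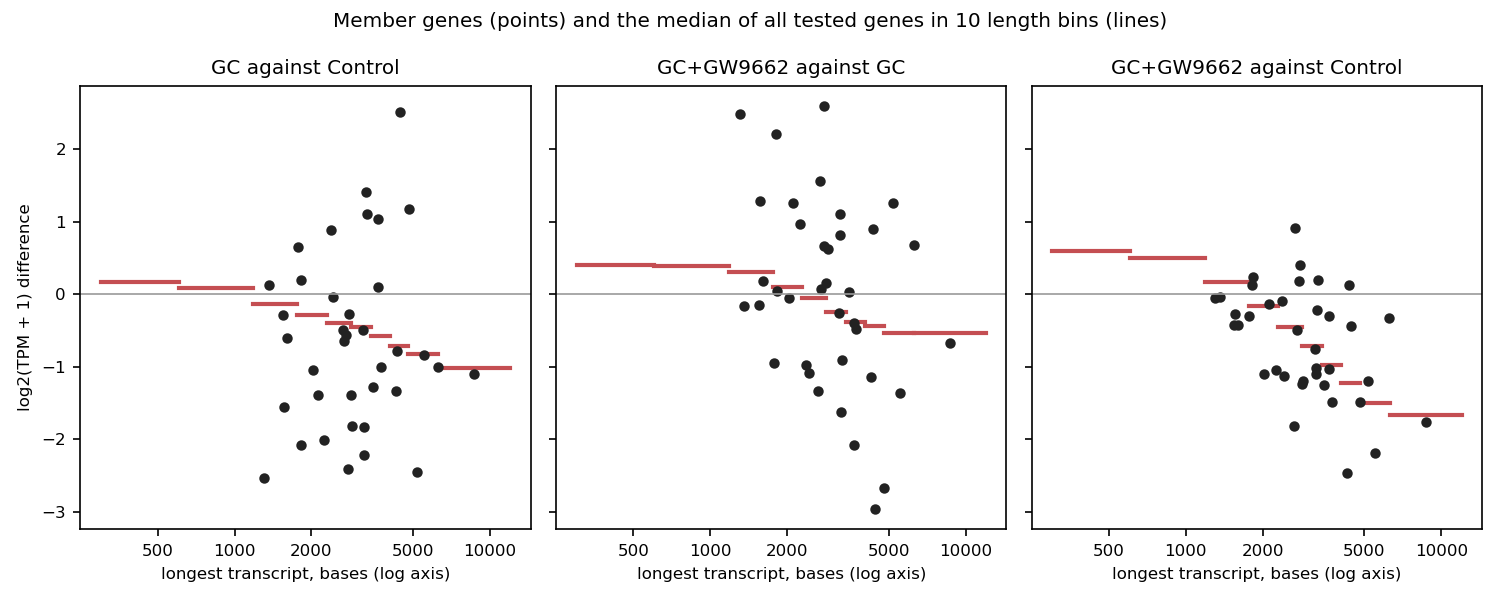
Difference in log2(TPM + 1) of the 37 tested genes (points) against the length of the longest transcript (log axis), with the median of all tested genes in each of 10 length bins (lines). In GC+GW9662 against Control the lines fall from 0.59 to -1.67, and Slc16a1 (4426 bases) at 2.52 in the left panel stands far above the -0.72 of its bin.

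Genes around these paths were counted from 8 lists of related genes, and the lists were not tested as sets. Calls of these list genes were not followed through the alternative settings, so the part of scaling and transcript length in them was not tested. The shares of all genes that rose and fell were 16.2% and 39.1% in GC against Control. They were 28.3% and 33.5% in GC+GW9662 against GC, and 14.1% and 48.6% in GC+GW9662 against Control. Of 16 tested isoforms and carriers outside the set, 1 rose and 12 fell in GC. Slc2a9, a urate and glucose carrier, fell by 2.99 ± 0.25 (adjusted p = 3.13e-05) and Slc2a8 by 1.15 ± 0.15 (adjusted p = 0.00031). With GW9662 7 of the 16 rose and 2 fell, and against Control 0 rose and 9 fell. Of 10 genes of pyruvate entry into mitochondria, 1 rose and 8 fell in GC. Pdk4 fell by 4.597 ± 0.22 (adjusted p = 2.14e-06) and rose by 2.91 ± 0.20 with GW9662 (adjusted p = 1.15e-05), the directions of Pdk1, Pdk2 and Pdk3. Pdhx, a structural subunit of the complex, rose by 0.88 ± 0.19 in GC (adjusted p = 0.0051), like Pdhb. In that list 3 rose and 2 fell with GW9662, and 2 rose and 8 fell against Control.

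Of 17 tested glycogen genes, 1 rose and 12 fell in GC, 5 rose and 4 fell with GW9662, and 0 rose and 14 fell in GC+GW9662 against Control. The shares of all genes were 16.2% and 39.1%, 28.3% and 33.5%, and 14.1% and 48.6%. Gys1, glycogen synthase, fell by 2.37 ± 0.19 in GC (adjusted p = 2.64e-05) and Pygl, a glycogen phosphorylase, fell by 3.47 ± 0.23 (adjusted p = 9.82e-06). The list's median in GC was -1.47, against -0.38 over all genes. Of 7 gluconeogenesis and glycerol phosphate genes, 0 rose and 3 fell in GC, 2 rose and 2 fell with GW9662, and 1 rose and 5 fell against Control. Gpd1, which makes glycerol 3-phosphate for triglycerides, fell by 3.87 ± 0.19 in GC (adjusted p = 2.20e-06) and rose by 3.12 ± 0.17 with GW9662 (adjusted p = 3.44e-06). Of 17 genes of branches into hexosamine, polyol and serine paths, the counts were 3 and 6, 7 and 8, and 5 and 7 in the same comparisons. Those in GC against Control were near the shares of all genes. Gfpt1, the entry enzyme of the hexosamine path, fell by 1.99 ± 0.21 with GW9662 (adjusted p = 0.00012).

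Of 7 other NADPH sources 1 rose and 4 fell in GC, 3 rose and 3 fell with GW9662, and 0 rose and 6 fell against Control. Lists this short make such counts coarse beside the shares of all genes (16.2% and 39.1%, 28.3% and 33.5%, 14.1% and 48.6%). Idh2, the mitochondrial NADP-dependent isocitrate dehydrogenase, fell by 3.45 ± 0.15 in GC (adjusted p = 1.35e-06) and rose by 3.07 ± 0.14 with GW9662 (adjusted p = 1.34e-06), and its cytosolic relative Idh1 fell by 2.17 ± 0.17 in GC (adjusted p = 2.60e-05). Mthfd2 was the gene of the list that rose in GC (0.45, adjusted p = 0.016), and Me1 (-0.07, adjusted p = 0.89) and Me2 (-0.47, adjusted p = 0.28) did not pass there. These 3 were named after their values were seen. Of 24 tested regulators of glycolysis, 6 rose and 12 fell in GC, 3 rose and 9 fell with GW9662, and 1 rose and 18 fell against Control. Txnip, a brake on glucose uptake, fell by 3.09 ± 0.12 in GC (adjusted p = 8.18e-07), and its relative Arrdc4 rose by 1.503 ± 0.10 (adjusted p = 1.24e-05). Max, whose product pairs with MYC on CACGTG, rose by 1.23 ± 0.09 (adjusted p = 1.79e-05). Myc itself, named after its values were seen, was at 45.2 and 40.97 TPM in Control, 7.54, 11.3 and 9.72 TPM in GC, and 11.3, 10.4 and 6.96 TPM in GC+GW9662 and fell by 2.08 ± 0.24 in GC (adjusted p = 0.00017). Of 12 tested hypoxia targets outside glycolysis, 4 rose and 4 fell in GC, 5 rose and 7 fell with GW9662, and 1 rose and 7 fell against Control. Vegfa, the endothelial growth factor, rose by 3.22 ± 0.39 in GC (adjusted p = 0.00022) and fell by 4.78 ± 0.34 with GW9662 (adjusted p = 1.47e-05).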

How the data were processed

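The 8 libraries were grouped by their titles (Control 2, GC 3, GC+GW9662 3). Values are TPM per gene as deposited by the authors. Per the submitters' processing notes fastp, HISAT2 2.1.0 and featureCounts were used; the genome build and annotation are not given in the sources used here. Starts and ends equal those of GENCODE M21 (GRCm38) in 97.6% of rows. TPM came out as whole reads at the longest M21 transcript for 38 of the 39 genes (not Pgam1), so recovered reads and depths are estimates, and reads copied by PCR do not each stand for 1 molecule. Reads that fit several genes, or antisense genes, cannot be told apart.

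The deposited rows (54232) held 54134 genes, each used once (Aldoa stood on 2 rows with the same values). Those reaching 1 TPM in 2 or more libraries were fitted as log2(TPM + 1), which understates changes of low genes, with limma 3.58.1 in R 4.3.3: 1 mean per group over all 8 libraries, a prior following mean level, two-sided tests and Benjamini-Hochberg adjustment over all 14985 genes in each of 3 comparisons. The fit was also run on simulated independent noise with few genes changed and no length trend. That setting is unlike these data, so the run does not vouch for the calls given here. All adjusted p-values given are from limma. Summaries, 50-base windows, promoter letters and plots used Python 3.11.15 (numpy 2.4.6, pandas 2.3.3, matplotlib 3.10.9). Promoters are from RefSeq (GRCm38.p6).

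The members, the 8 lists of related genes and the 9 marker lists were chosen with earlier results of these data known. Every member is named, and from each list of related genes counts are given with some of at most 3 passing genes of smallest adjusted p. Alternatives were a pseudocount of 0.1 or 5, no filter on low values, a stricter filter (5 TPM), 3 other scalings, a length trend removed by exon length, other priors, library weights, the compared groups alone, replicate blocks and single libraries left out. Limma voom on recovered reads and the trend by longest transcript were added after the data were seen.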

Additional observations from a re-analysis of the deposited data

How the results depend on the processing

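The counts of members that passed were most sensitive to scaling and length. In GC against Control 7 rose and 23 fell (18.9% and 62.2%, against 16.2% and 39.1% of all genes). Median-ratio scaling gave 11 and 14 (29.7% and 37.8%, against 27.4% and 26.5%). Quantile normalization gave 9 and 15 (24.3% and 40.5%, against 27.9% and 26.1%). Removal of the trend by exon length gave 11 and 13 (29.7% and 35.1%, against 28.5% and 26.7%), and by longest transcript 10 and 15 (27.0% and 40.5%, against 28.8% and 27.1%). Over single GC or GC+GW9662 libraries left out, 6 to 7 rose and 18 to 23 fell (16.2% to 18.9% and 48.6% to 62.2%). The shares of all genes in those runs were 13.7% to 20.3% and 35.3% to 42%. Fewer members fell without either Control library, a run that leaves a single Control library. GC+GW9662 had 1 gene higher and 20 lower than Control (2.7% and 54.1%, against 14.1% and 48.6% of all genes). The counts were 11 and 12 with median-ratio scaling (29.7% and 32.4%, against 30% and 30.7%). Quantile normalization made them 8 and 15 (21.6% and 40.5%, against 28.1% and 29.6%). With the trend by exon length removed they were 11 and 7 (29.7% and 18.9%, against 23.6% and 22.8%), and by longest transcript 9 and 11 (24.3% and 29.7%, against 22.7% and 22.0%). Limma voom on recovered reads gave 7 and 16 (18.9% and 43.2%, against 24.1% and 36.5%). Library weights (whose estimation did not reach its tolerance) gave 2 higher, and so did the 2 groups alone (5.4% each, against 20.8% and 16.5%). For GC+GW9662 against GC the counts stayed within 1.5 times 14 and 12 in every alternative run. The causes were not tested.

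Single genes changed sign as follows (log2). In GC against Control these were, with median-ratio scaling, Gpi1 0.0669, Aldoa 0.29 and Pkm 0.54; with quantile normalization, Slc16a3 0.0036; with the exon length trend removed, Gpi1 0.18, Pfkp 0.0339, Aldoa 0.11 and Pkm 0.59; with the longest transcript trend removed, Gpi1 0.0159 and Pkm 0.37. Between GC+GW9662 and Control they were, with median-ratio scaling, Slc2a1 0.51, Aldoa 0.30, Tpi1 0.31, Ldhb 0.67, Slc16a1 0.24, Pdhb 0.62, Pdk3 0.58 and Taldo1 0.70; with quantile normalization, Slc16a1 0.49, Pdhb 0.44 and Rpia 0.66; with the exon length trend removed, Slc2a3 0.93, Gpi1 0.40, Slc16a1 0.36, Pdhb 0.54, Pdk1 0.13, Pgd 0.12, Tkt 0.26 and Rpia 0.70; with voom, Aldoa 0.0660, Tpi1 0.0730, Ldhb 0.45, Slc16a1 0.0249 and Taldo1 0.46; with the longest transcript trend removed, Slc2a1 0.56, Slc2a3 1.19, Slc16a1 0.73, Pdk1 0.17 and Rpia 0.61.

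Calls also ended with no change of sign. Counted over scalings, length trends and voom, GC against Control lost those of Slc2a3, Hk1, Gpi1, Pfkl, Pfkp, Pfkfb4, Aldoa, Tpi1, Slc16a3, Pgls and Rpe in at least 1 setting, GC+GW9662 against GC those of Hk1 and Pfkp, and GC+GW9662 against Control those of Hk3, Gpi1, Pfkl, Pfkm, Pfkp, Pfkfb3, Pfkfb4, Aldoa, Tpi1, Eno1, Pkm, Pdk1, Pdk2, Pgd and Tkt. The same settings gave calls not among those reported for Pgk1, Taldo1 and Rpia (GC against Control), for Pfkl, Aldoa, Tpi1, Taldo1 and Rpia (GC+GW9662 against GC) and for Aldoc, Gapdh, Pgk1, Eno2, Ldha and Slc16a3 (GC+GW9662 against Control).

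The second Control library is numbered 2 in its title and 3 in the bracketed code. Deviations from the group means of same-numbered GC and GC+GW9662 libraries correlated at -0.097, -0.117 and 0.079, and only GC replicate 3 correlated best with the GC+GW9662 library of its own number. Such deviations cancel within each group, which constrains their correlations, so these values cannot show whether the numbers pair the samples. With a replicate block by title number 6 rose and 18 fell in GC against Control, 14 and 11 in GC+GW9662 against GC, and 1 and 19 in GC+GW9662 against Control. As shares of the members these were 16.2% and 48.6%, 37.8% and 29.7%, and 2.7% and 51.4%. The shares of all genes in that run were 13.3% and 34.3%, 25.7% and 30%, and 11.9% and 44%. With a replicate block by bracketed number the counts were 7 and 18, 14 and 11, and 1 and 19. The shares of all genes were then 13.8% and 35.1%, 25.9% and 30.5%, and 12.1% and 43.7%. Depth limits the low genes most: Gapdh rests on 31 to 153 reads per library and Eno3 on 12 to 100.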
